A study of Mus musculus with 17 samples.

Results

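Neonatal beta cells were taken from the single library of mice at postnatal day 3 (P3). Cells were chosen by hormone and trypsinogen levels: a cell counted as a beta cell when its normalized Ins2 level was at least 3000, when Ins2 exceeded Gcg, Sst and Ppy, and when Prss2, an acinar trypsinogen, stayed under 1500. This rule kept 129 of the 204 P3 cells, in a series of 2999 cells. The same rule gave 129 beta cells in 2 libraries at P12, 107 in 1 library at P21 and 368 in 3 libraries of adult controls. All 4 groups carried Ngn3-Cre and Rosa-RFP, so that cells descended from Ngn3-expressing endocrine progenitors were fluorescent and could be sorted. The P3, P12 and P21 mice had no treatment label and no stated sex. The adult controls were males injected with citrate buffer at 2 months of age after an overnight fast. The postnatal libraries were made to follow the maturation of beta cells, and how many animals went into each was not given. Expression was measured by a modified STRT-seq, which counts the mRNA molecules of single sorted cells by unique molecular identifiers (UMIs), and a normalized level is the UMIs of a gene per 100000 UMIs of the cell outside 8 genes that include the islet hormones.

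Beta cells of the newborn mouse already make insulin, but they respond poorly to glucose and still divide. Over the weeks after birth they lose transcripts of the fetal islet, such as the imprinted Notch-family ligand Dlk1, and gain genes of the mature cell, such as the peptide hormone urocortin 3 (Ucn3) and the glucose transporter GLUT2 (Slc2a2). Newborn islet cells also contain peptide YY (Pyy), which many endocrine progenitors and several islet cell types express.

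The values that chose the cells are descriptions. Among the 129 cells the lowest Ins2 level was 3377, and the highest Prss2 level was 1365. Another 26 P3 cells had Ins2 as their largest hormone at a level below the limit, the highest at 2619, and 3 cells with enough Ins2 had Prss2 over the limit, the lowest at 1559. In 11 more cells with enough Ins2 another hormone was larger. The other endocrine cells of P3, chosen in the same way by their own hormone, were 22 alpha, 12 delta and 5 PP cells. Beta cells made up 76.8% of these 168 endocrine cells (exact 95% binomial interval 69.7 to 82.9).

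Genes outside the rule that mark beta cells stood higher in these cells than in the alpha cells of the same library. G6pc2, the islet glucose-6-phosphatase, had a median normalized level of 249 in P3 beta cells and 9.32 in P3 alpha cells. Slc2a2 had a median of 31.9 in P3 beta cells and 0 in P3 alpha cells. The transcription factor Nkx6-1 had a median of 20.9 in P3 beta cells and 1.13 in P3 alpha cells, and Pdx1 had 28.6 in P3 beta cells and 1.64 in P3 alpha cells. Mafa, a factor of mature beta cells, was listed at 0 in every cell of the series and could not be compared.

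P3 beta cells held more UMIs per cell than the adult ones, and the cause was not tested. Their median was 62663 UMIs per cell outside the 8 genes, against 42146 to 53164 in the adult control libraries. The sequencing run was named for every adult control cell and for no P3, P12 or P21 cell. Run and age can therefore not be told apart between the postnatal and the adult control libraries. UMIs of the islet hormones were found in cells of every class. Ghrl, the hormone of epsilon cells, had a median level of 17.9 in P3 beta cells, 28.7 in P3 alpha cells and 16.2 in P3 delta cells, and a UMI was present in 99.2% of P3 beta cells. Y-linked UMIs were present in 124 of the 129 P3 beta cells. With 1 P3 library, the p-values below assume that it varied as the replicated P12 and control libraries did, whose spread may be technical.

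The genes given as marks of these neonatal cells were Nrep, Dlk1 and Nnat. Nrep encodes a small neuronal-regeneration protein, Dlk1 a membrane protein of the Notch ligand family, and Nnat neuronatin, an imprinted protein of the endoplasmic reticulum. Summed over the beta cells of each library, Nrep had 7.57 log2 CPM at P3, where CPM are the UMIs of a gene scaled to a common library total. It had 6.49 and 6.85 at P12, 5.41 at P21, and 4.10, 4.03 and 4.84 in adult controls. The P3 value lay above all the others, and the order of the groups followed age. Nrep rose 9.98-fold in P3 over control beta cells (log2 fold change 3.32 ± 0.30 SE, adjusted p = 2.42e-06).

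Dlk1 had 6.94 log2 CPM at P3. It had 1.23 and 2.43 at P12, 1.38 at P21, and 0.67, -0.89 and 0.93 in adult controls. P3 stood far above every other library, and the P12 libraries already lay close to P21. Dlk1 rose 130-fold in P3 over control beta cells (log2 fold change 7.03 ± 0.58 SE, adjusted p = 5.95e-07); the log2 fold change was 7.93 without the first control library and 6.48 without the second. Nnat had 7.02 log2 CPM at P3, 6.58 and 6.23 at P12, 4.27 at P21, and 4.08, 3.31 and 4.57 in adult controls. It was high at P3 and P12 and lower in the others, and the P21 value lay within the adult range. Nnat rose 8.40-fold in P3 over control beta cells (log2 fold change 3.07 ± 0.35 SE, adjusted p = 3.18e-05).

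**Figure D1:**
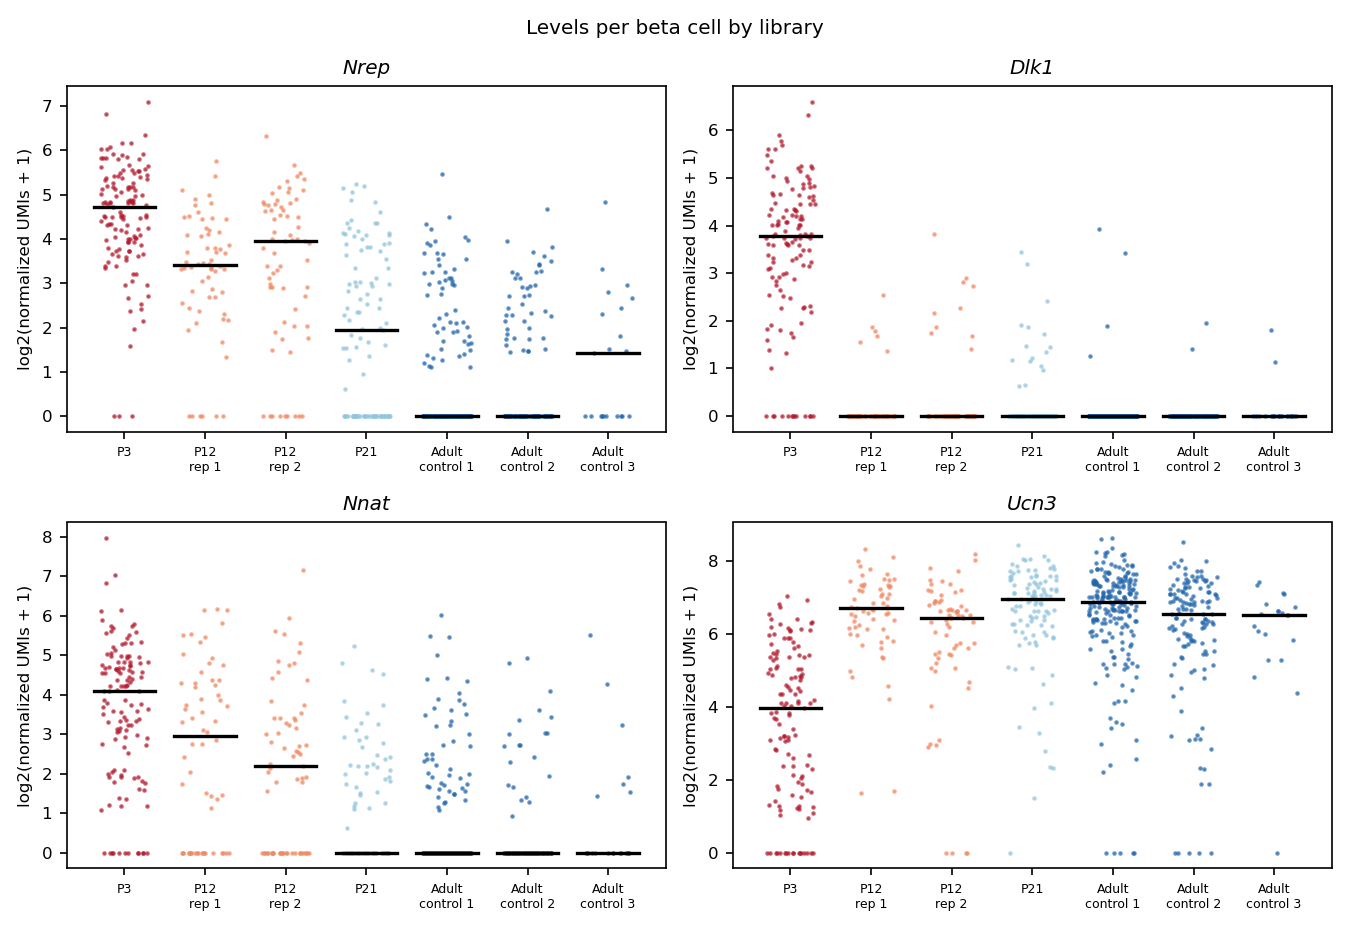
Level of Nrep, Dlk1, Nnat and Ucn3 in each beta cell, as log2 of normalized UMIs plus 1 (y axis), by library (x axis); each point is a cell and the black line is the median. Dlk1 has a median above 0 at P3 alone among these libraries, Nrep and Nnat step down with age, and Ucn3 is lower at P3 than in the other libraries.

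These transcripts were spread over most of the neonatal cells. Nrep had a median normalized level of 25.6 in P3 beta cells, with quartiles of 14.3 and 40.4, and a UMI in 97.7% of them. Dlk1 had a median of 12.7, with quartiles of 5.71 and 22.3, and a UMI in 89.9%. Nnat had a median of 15.9, with quartiles of 4.77 and 27.2, and a UMI in 90.7%. In 103 of the 129 P3 beta cells all 3 transcripts were found together, a share of 79.8% (exact interval 71.9 to 86.4). Exactly 2 of the 3 were found in 24 of 129 P3 beta cells. At P12 this held for 39 of 62 and 33 of 67 beta cells. The share with all 3 was 4.84% and 10.4% of beta cells in the P12 libraries and 5.61% at P21. It was 0%, 0% and 4.76% in adult controls, where 0 of 212 cells allowed up to 1.72%. After every cell was thinned to 18660 UMIs outside the 8 genes, so that depth was equal, the share was 63.9% of 122 P3 beta cells (54.7 to 72.4). The 3 adult control libraries then had 0%, 0% and 5.26%. Alpha cells of the same P3 library held all 3 transcripts in 1 of 22 cells.

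Across all genes, 170 of 14345 tested were higher and 240 lower in P3 than in control beta cells at an adjusted p under 0.05. These calls were 1.19% of the genes in the higher and 1.67% in the lower direction, and 2.86% together. Gene lists are read below against those shares. The median log2 fold change over all genes was 0.02.

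Genes of immature and neonatal endocrine cells were called higher in 10 of 29 tested members and lower in 0. Their median log2 fold change was 1.21. The other 5 of the 34 listed genes did not pass the filter on low counts. The called members included Dlk1, Nrep, Rbp4, Nnat, Pyy, Fev, Cd24a, Marcksl1 and Cd81. Dlk1, Nrep and Nnat are the genes given as marks of these cells, so their calls repeat the values above. The list was also chosen with earlier results of these data known. At cells of like depth (30000 to 60000 UMIs outside the 8 genes) the list again had 10 higher and 0 lower calls. Fev, a factor of endocrine progenitors and serotonergic neurons, had 5.64 log2 CPM in P3 and 1.96, 2.32 and 0.93 in control beta cells (log2 fold change 3.74 ± 0.50 SE, adjusted p = 0.000171).

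Rbp4, the plasma retinol carrier, had 10.20 log2 CPM in P3 beta cells, against 6.70, 7.32 and 5.75 in control beta cells. It rose 10.9-fold (log2 fold change 3.44 ± 0.33 SE, adjusted p = 3.62e-06). Pyy had 13.39 log2 CPM in P3 beta cells and 10.36, 10.93 and 11.26 in control beta cells. It rose 5.63-fold (log2 fold change 2.49 ± 0.29 SE, adjusted p = 4.18e-05). Per cell, Pyy had a median normalized level of 1193 in P3 beta cells, and 70 of the 129 cells, or 54.3%, reached 1000. The share of beta cells that reached this level was 8.06% and 14.9% at P12, 3.74% at P21, and 2.36%, 6.67% and 4.76% in adult controls. Cd24a, a surface glycoprotein of immature cells, was at 6.66 log2 CPM in P3 and between 3.97 and 4.26 in control beta cells (log2 fold change 2.56 ± 0.38 SE, adjusted p = 0.000482). Rbp4 and Cd24a also mark delta cells and Pyy marks PP cells. Against controls they were the only called genes among 7 tested delta-cell markers and 6 tested PP-cell markers. Hhex, a defining factor of delta cells, had 3.73 log2 CPM in P3 and 2.97, 1.62 and -1.80 in control beta cells and did not pass (adjusted p = 0.442). The summed level of the delta-cell list, which includes Rbp4 but not Sst, was 190 normalized UMIs in P3 and at most 29.3 in control beta cells. That of the PP-cell list, which includes Pyy but not Ppy, was 1543 in P3 and 181 to 310 in control beta cells. Rbp4 and Pyy made up most of these sums in P3. In P3 beta cells Rbp4 had 13604 UMIs and Cd24a, the next delta-cell marker, 1169. Pyy had 124422 UMIs there and Id2, the next PP-cell marker, 437. The sums thus mostly repeat the values of Rbp4 and Pyy. The part of delta and PP cells in the result was not tested.

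Further genes among the 12 highest fold changes belonged to no neonatal list. Enpp2, which makes lysophosphatidic acid, had 9.55 log2 CPM in P3 beta cells and 7.65, 7.58 and 7.11 in control beta cells (log2 fold change 2.07 ± 0.25 SE, adjusted p = 6.37e-05). The 2 P12 libraries and P21 lay between 7.43 and 7.89, so that Enpp2 stood apart at P3. Igsf1, a membrane glycoprotein of endocrine tissue, had 5.88 in P3 and 3.45 to 4.24 in controls, with both P12 libraries at 5.66. The phospholipid flippase Atp11a had 8.62 in P3 and 6.26 to 6.79 in controls, with P12 and P21 between 8.09 and 8.17. Hist3h2ba, a histone H2B gene, had 5.80 in P3, below the 6.95 of the first P12 library, and 3.07 to 4.18 in controls. Dbpht2 had 7.36 in P3 and 4.96 to 5.49 in controls. The 4 genes rose by log2 fold changes of 2.06 to 2.19, with adjusted p-values between 5.23e-05 and 0.00924.

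**Figure D2:**
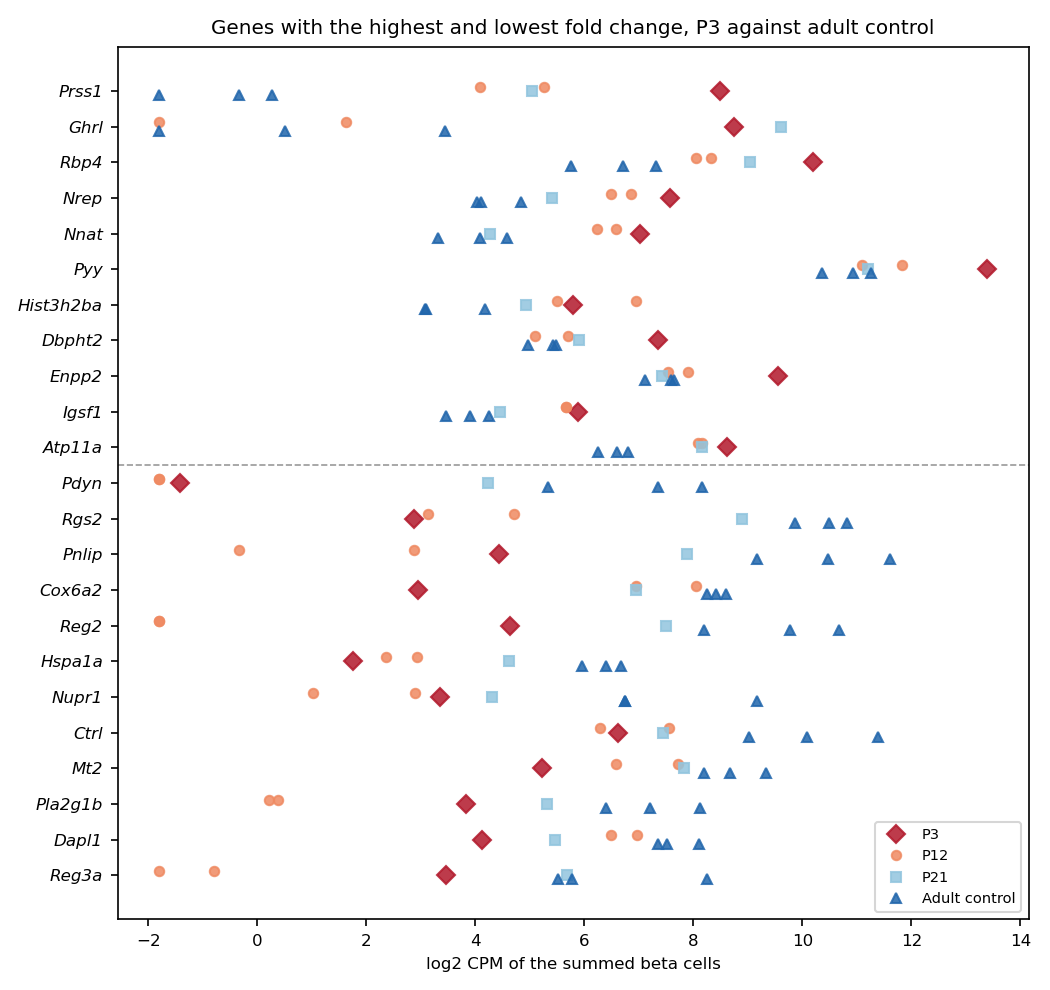
Expression of genes with the highest (above the dashed line) and the lowest fold changes between P3 and adult control beta cells, as log2 CPM of the summed beta cells (x axis); each point is a library. P3 lies outside the adult control range for each gene by the rule that named them. P12 and P21 mostly lie between P3 and the controls, but P21 lies above P3 for Ghrl, and both P12 libraries lie below P3 for Pnlip, Reg2, Nupr1, Pla2g1b and Reg3a.

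Imprinted growth genes were called higher in 5 of 27 tested members and lower in 0, with a median log2 fold change of 0.72. Besides Dlk1 and Nnat these were Grb10, an adaptor that restrains insulin receptor signalling, Gnas, the stimulatory G protein subunit, and Gatm, an enzyme of creatine synthesis. Grb10 had 6.55 log2 CPM in P3 and 3.70, 4.55 and 5.35 in control beta cells (log2 fold change 1.98 ± 0.43 SE, adjusted p = 0.0132). Gnas had 5.86 in P3 and 3.73, 3.30 and 2.37 in controls (log2 fold change 2.55 ± 0.52 SE, adjusted p = 0.00817); overlapping transcripts of its locus could share reads. At like depth the calls for Grb10 (log2 fold change 1.32, adjusted p = 0.334) and Gnas (2.18, adjusted p = 0.0885) were lost. The call for Gatm was lost without the second control library (adjusted p = 0.0993) or the second P12 library (0.0508). Other imprinted genes did not pass. Peg3, a zinc finger gene, had 9.39 log2 CPM in P3 and 9.38, 9.91 and 9.47 in control beta cells (adjusted p = 0.774), and Meg3, a noncoding RNA of the Dlk1 locus, had 10.2 in P3 and 9.40, 9.47 and 9.61 in controls (adjusted p = 0.126).

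RNA-binding genes of fetal growth were called higher in 3 of 6 tested members, all of the Igf2bp family, which binds and stabilises growth-related mRNAs in the embryo. Igf2bp1 had 169 UMIs in P3 beta cells and 0 in the 3 control libraries, which makes it at least 129-fold higher against a floor of 3 counts over the controls. Igf2bp3 had 4.41 log2 CPM in P3 and 1.78, 1.74 and -1.80 in control beta cells (log2 fold change 3.02 ± 0.68 SE, adjusted p = 0.0183). Igf2bp2 had 4.81 in P3, 4.18 and 4.70 at P12, and 3.09, 0.23 and -1.80 in controls (log2 fold change 2.83 ± 0.74 SE, adjusted p = 0.0435). These were low transcripts: a UMI of Igf2bp1 was found in 26.4% of P3 beta cells and 9.09% of P3 alpha cells, and at equal depth in 16.4% of P3 beta cells and 10.5% of P3 alpha cells. Without the second control library the adjusted p was 0.0547 for Igf2bp3 and 0.12 for Igf2bp2. Without either P12 library that of Igf2bp2 was 0.0631 or 0.0686, and without the first control library its log2 fold change was 5.23. At like depth edgeR called 0 of 5 tested members of the list.

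Genes of cell division were called higher in 8 of 54 members and lower in 0, with a median log2 fold change of 1.85. The called members were the replicative helicase subunits Mcm2, Mcm3, Mcm5 and Mcm6, the kinase Aurka, the centromeric histone Cenpa, the tubulin Tuba1b and the Cdk subunit Cks1b. Cks1b had 7.10 log2 CPM in P3 beta cells, 6.91 and 6.43 at P12, 5.40 at P21, and 5.31, 5.18 and 5.90 in control beta cells (log2 fold change 1.66 ± 0.30 SE, adjusted p = 0.00382). Mcm2 had 5.50 in P3 and 3.28, 3.73 and 0.93 in controls (log2 fold change 2.31 ± 0.52 SE, adjusted p = 0.0182), and Mcm6 had 5.41 in P3 and 3.58, 2.84 and 1.44 in controls (2.42 ± 0.53 SE, adjusted p = 0.0141). The mitotic markers Mki67 (adjusted p = 0.169) and Top2a (adjusted p = 0.187) did not pass. A single cell held 54.3% of the Mki67 and 51.2% of the Top2a UMIs of P3 beta cells, and 53.8% of those of Cenpa. The count of called members was 29 without the first control library, 3 without the second and 11 without the third, and it was 1 in beta cells with other hormones under 1000. Without the second control library the calls for Mcm3, Mcm5, Mcm6, Aurka and Tuba1b were lost, with adjusted p-values between 0.0512 for Mcm5 and 0.174 for Aurka. Without single P12 libraries Tuba1b (adjusted p = 0.0565 and 0.0596) and Aurka (0.0528) were lost as well.

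Genes of beta-cell maturity moved the other way. Of 26 tested members, 10 were called lower and 0 higher, with a median log2 fold change of -1.23, and at like depth 8 of 25 were called lower. Ucn3 had 7.39 log2 CPM in P3 beta cells, 9.77 and 9.38 at P12, 9.82 at P21, and 9.92, 9.59 and 9.48 in control beta cells. P3 lay below every other library, while P12 and P21 lay inside the control range or just below it. Ucn3 was 4.88-fold lower in P3 than in control beta cells (log2 fold change -2.29 ± 0.31 SE, adjusted p = 0.000221). Cox6a2, the striated-muscle isoform of a cytochrome c oxidase subunit, had 2.95 log2 CPM in P3, 8.05 and 6.95 at P12, 6.95 at P21, and 8.41, 8.25 and 8.60 in controls. It was 46.2-fold lower in P3 (log2 fold change -5.53 ± 0.47 SE, adjusted p = 9.12e-07; -4.18 at like depth), and a UMI was found in 14.7% of P3 beta cells, against 76.3% to 86.3% in the control libraries.

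Trpm5, a calcium-activated cation channel, had 5.05 log2 CPM in P3 beta cells, 7.37 and 7.58 at P12, and 7.04, 6.78 and 7.61 in control beta cells (log2 fold change -2.12 ± 0.35 SE, adjusted p = 0.00144). Slc2a2 had 7.76 in P3, 8.96 and 8.93 at P12, and 9.34, 9.06 and 8.95 in controls (log2 fold change -1.37 ± 0.28 SE, adjusted p = 0.00854). For these genes P12 stood with the adults. Others were still low at P12. Prlr, the prolactin receptor, had 7.55 log2 CPM in P3, 8.42 and 7.79 at P12, 9.26 at P21, and 9.80, 10.30 and 9.57 in controls (log2 fold change -2.37 ± 0.35 SE, adjusted p = 0.00053). Ero1lb, an oxidase that drives disulfide formation in proinsulin, had 8.30 in P3, 9.43 and 9.33 at P12, and 10.53, 10.67 and 10.59 in controls (log2 fold change -2.30 ± 0.28 SE, adjusted p = 7.03e-05). The protease gene Prss53, the glucose-6-phosphatase G6pc2, the GABA-synthesizing Gad1 and the stress gene Nupr1 were also called lower. Gad1 lost the call without the first or second control library or either P12 library (adjusted p = 0.0549 to 0.0629), and G6pc2 at like depth (0.0607). Nupr1 had a log2 fold change of -4.68, but -3.44 without the third control library, and did not pass when cells with Ins2 of at least 1000 were admitted (-2.33, adjusted p = 0.138).

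**Figure D3:**
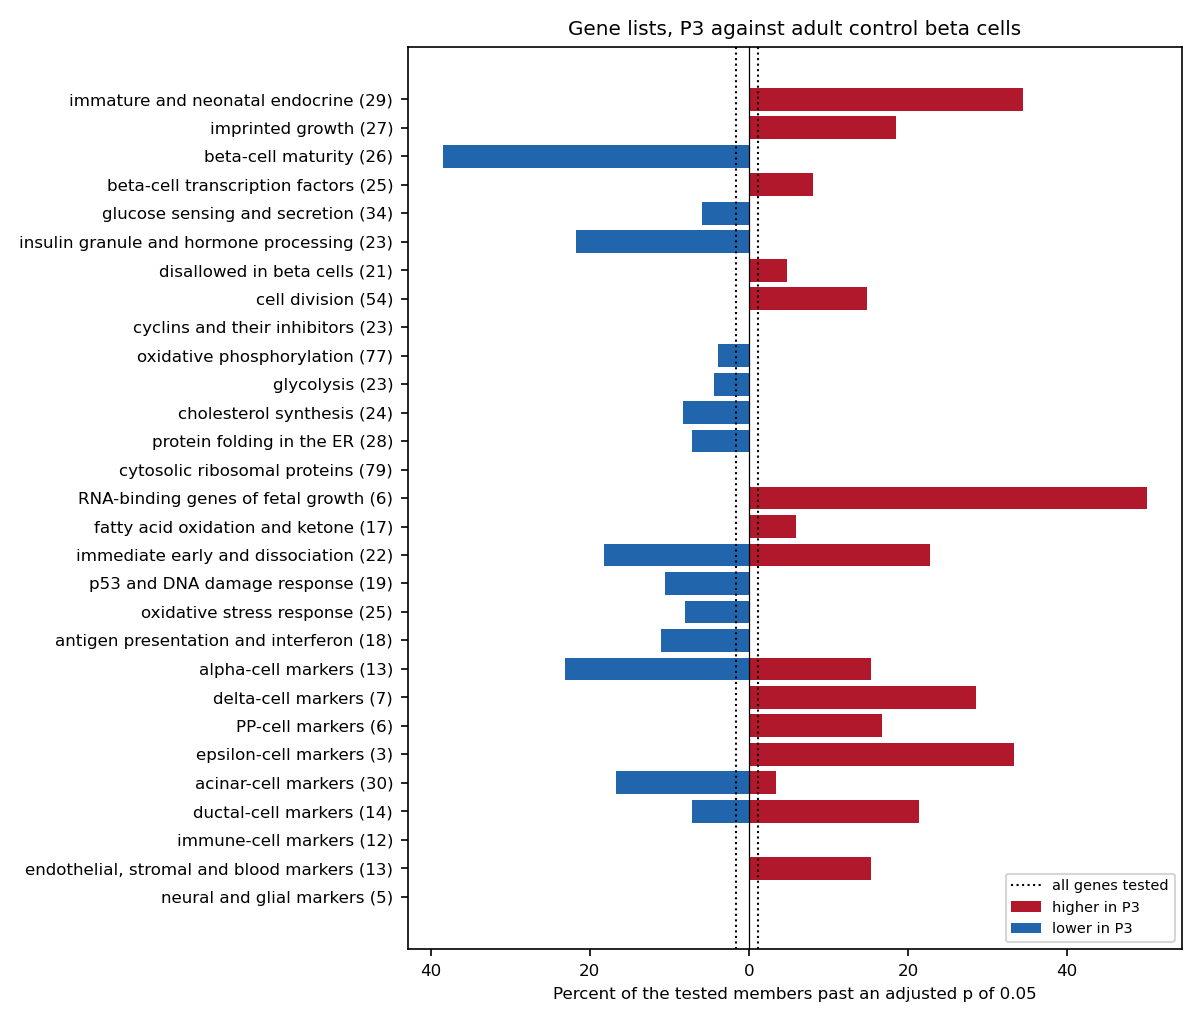
Percent of the tested members of each gene list (x axis) called higher (right, red) or lower (left, blue) in P3 than in adult control beta cells; the number tested is in brackets and dotted lines mark the share over all genes (1.19 higher, 1.67 lower). Maturity genes were called only lower, and neonatal, imprinted and division genes only higher. The neonatal list holds Nrep, Dlk1 and Nnat, the genes given as marks of these cells.

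The insulin granule and hormone processing list had 5 of 23 members called lower and 0 higher. Scg2, a secretogranin, had 11.59 log2 CPM in P3 and 13.10, 13.09 and 13.19 in control beta cells (log2 fold change -1.54 ± 0.26 SE, adjusted p = 0.002). Resp18, an endocrine granule protein, had 9.38 in P3 and 11.44, 11.25 and 11.65 in controls (log2 fold change -2.08 ± 0.29 SE, adjusted p = 0.000321). Scg5 and Ero1lb were called lower as well, and Scg5 lost the call without the second control library (adjusted p = 0.0844), without either P12 library (0.0602 and 0.0603) or at like depth (0.0856). The proinsulin convertases did not pass, with Pcsk1 at 8.08 in P3 and 8.31 to 8.52 in controls (adjusted p = 0.597), and Pcsk2 at 12.3 in P3 and 12.4 to 12.7 in controls (adjusted p = 0.71). Iapp, amylin, had 14.69 log2 CPM in P3 and 15.73, 15.65 and 15.85 in controls, 2.07-fold lower (log2 fold change -1.05 ± 0.24 SE, adjusted p = 0.0186). The call was lost without the second control library (adjusted p = 0.0598) and at like depth (log2 fold change -0.76, adjusted p = 0.1).

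The Ins2 level moved with depth. In no cell of the series did a gene exceed 8718 UMIs, the Ins2 UMIs of P3 beta cells had a median of 5760 and a maximum of 7009, and the normalized Ins2 level fell with a cell's depth (Spearman's rho of -0.92 across the 129 cells, a description). The median normalized Ins2 level was 9016 in P3 beta cells and 13183 to 15209 in the control libraries. In cells of like depth it was 12798 in 33 P3 beta cells and 13183 to 15100 in control beta cells. Ins1, the second insulin gene of the mouse, had 15.81 log2 CPM in P3 and 16.42 to 16.58 in controls and did not pass (log2 fold change -0.70 ± 0.23 SE, adjusted p = 0.122). It passed without the third control library (adjusted p = 0.0358), with DESeq2 (0.0115), with limma-voom (0.000148) and with a replicate block in edgeR (7.01e-09). Its log2 fold change was -0.16 at like depth. The median Iapp level at like depth remained lower, at 4661 in P3 beta cells and 7041 to 7833 in control beta cells.

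Of the transcription factors of beta-cell identity, 2 of 25 tested members were called higher and 0 lower. Among the called members was Nr4a1, an early-response nuclear receptor, with 5.75 log2 CPM in P3 and 3.53, 3.35 and 3.44 in control beta cells (log2 fold change 2.33 ± 0.40 SE, adjusted p = 0.002); at like depth its adjusted p was 0.0577. Pdx1 had 7.84 log2 CPM in P3 and 7.54, 7.49 and 7.26 in controls (adjusted p = 0.484). Nkx6-1 had 7.47 in P3 and 7.69, 8.18 and 8.07 in controls (adjusted p = 0.395), and Pax6 had 8.98 in P3 and 8.90, 8.88 and 8.69 in controls (adjusted p = 0.841). Of the 34 genes of glucose sensing and secretion, 2 were called lower, Trpm5 and Slc2a2, and 0 higher. The sulfonylurea receptor Abcc8 had 8.99 in P3 and 8.84 to 9.01 in controls (adjusted p = 0.929). Oxidative phosphorylation had 3 of 77 members called lower, Cox6a2 and Sdhc among them. The call for Sdhc was lost without the second control (adjusted p = 0.065), the third control (0.0548) or either P12 library (0.0696 and 0.0731). Of 79 cytosolic ribosomal protein genes edgeR called 0, with 0 at an unadjusted p under 0.05, as did DESeq2 and limma-voom. Of 23 cyclin and inhibitor genes edgeR and DESeq2 called 0 and limma-voom 1, with 4 at an unadjusted p under 0.05 in edgeR.

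Immediate early and dissociation genes were called in both directions, 5 of 22 higher and 4 lower. Egr1, an immediate early factor, had 8.17 log2 CPM in P3 and 6.59, 6.54 and 5.86 in control beta cells (log2 fold change 1.79 ± 0.27 SE, adjusted p = 0.000639), whereas the heat-shock gene Hspa1a had 1.76 in P3 and 6.40, 6.67 and 5.95 in controls (-4.74 ± 0.50 SE, adjusted p = 1.53e-05). Without the second control library 2 members were called higher, and at like depth 1. The metallothioneins, which bind zinc and copper, were both lower. Mt1 had 7.41 log2 CPM in P3 and 11.13, 10.21 and 10.55 in controls (log2 fold change -3.27 ± 0.38 SE, adjusted p = 4.18e-05), and Mt2 had 5.22 in P3 and 9.34, 8.67 and 8.19 in controls (-3.61 ± 0.49 SE, adjusted p = 0.000221). B2m, the light chain of MHC class I, had 4.91 in P3 and 7.11, 7.41 and 6.67 in controls (log2 fold change -2.20 ± 0.36 SE, adjusted p = 0.00126). When cells with Ins2 of at least 1000 were admitted, the log2 fold change was -1.44 for Mt2 (adjusted p = 0.107) and -0.94 for B2m (adjusted p = 0.297), so that both calls were lost, and -1.78 for Mt1 (adjusted p = 0.0144).

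The lowest fold changes also named genes of signalling. Pdyn, the precursor of dynorphin opioid peptides, had 1 UMI in all P3 beta cells together and 2163 in control beta cells, a rate 947-fold lower (exact counting interval 170 to 37437). It had 4.23 log2 CPM at P21 and 5.34, 7.36 and 8.16 in controls. Rgs2, a regulator of G protein signalling, had 2.88 log2 CPM in P3, 3.14 and 4.72 at P12, 8.89 at P21, and 10.83, 10.49 and 9.87 in controls (log2 fold change -7.62 ± 0.62 SE, adjusted p = 5.95e-07). For Pdyn and Rgs2, P12 lay nearer to P3 and P21 between P3 and the adults. Dapl1 had 4.13 in P3, 6.48 and 6.96 at P12, and 7.35, 7.52 and 8.10 in controls (log2 fold change -3.58 ± 0.40 SE, adjusted p = 2.38e-05).

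Genes of other cell types were also among the calls. Of 30 tested acinar markers, 5 were lower and 1 higher. Pnlip, Reg2 and Ctrl of this list, and Pla2g1b and Reg3a, which acinar cells also express, were lower in P3 than in control beta cells, with log2 fold changes of -3.57 to -6.31. The summed level of 31 acinar markers was 2240 normalized UMIs in P3 beta cells, 275 and 759 at P12, 950 at P21, and 1209, 2688 and 6067 in control beta cells. Without the third control library the log2 fold change was -2.22 for Reg3a, -5.56 for Pnlip, -4.58 for Reg2 and -3.05 for Ctrl, against -3.57, -6.31, -5.23 and -3.86 with it. The calls for Reg3a (adjusted p = 0.13) and Ctrl (0.0548) were lost when cells with Ins2 of at least 1000 were admitted, and DESeq2 did not call Reg3a (0.209). Prss1, another trypsinogen, went the opposite way, with 8.49 log2 CPM in P3 and 0.27, -0.33 and -1.80 in control beta cells (log2 fold change 8.97 ± 0.46 SE, adjusted p = 5.21e-10; 9.62 without the first control library). Its median normalized level was 40.9 in P3 beta cells, 27.7 in P3 alpha cells and 28.0 in P3 delta cells, and reads of near-identical trypsinogen genes could be split between them. Ghrl rose by a log2 fold change of 6.30 ± 0.62 SE (adjusted p = 4.66e-06), but 1 cell held 55.2% of its P3 UMIs, DESeq2 did not call it (adjusted p = 0.267), and its log2 fold change was 8.76 without the first control library. Of 14 tested ductal-cell markers, 3 were called higher and 1 lower. Krt8, Krt18 and Anxa4, which ductal and other epithelial cells express, rose by log2 fold changes of 1.22 to 1.42, and Tm4sf4, a tetraspanin-like membrane protein, fell by 1.23 on the log2 scale (adjusted p = 0.023), a call lost at like depth (0.077). Acta2, smooth muscle actin, had 77.9% of its P3 UMIs in 1 cell. The part of RNA from other cells in these results was not tested.

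Against P12, the nearest age, 50 of 14345 genes were higher (0.349%) and 44 lower (0.307%) in P3 beta cells. Of the 29 neonatal genes, Dlk1, Cd24a, Pyy and Rbp4 were called higher and 0 lower. Of 7 tested delta-cell markers, 3 were called higher, namely Cd24a, Rbp4 and Arg1, and 0 lower. That is 42.9%, against 0.655% of all genes in either direction, and DESeq2 called 2. Of 6 tested PP-cell markers Pyy alone was called. The part of delta and PP cells in these calls was not tested. Dlk1 had a log2 fold change of 5.07 ± 0.60 SE (adjusted p = 7.78e-05), which was 5.89 without the second P12 library. Nrep (0.89 ± 0.33 SE, adjusted p = 0.337) and Nnat (0.61 ± 0.38 SE, adjusted p = 0.606) did not pass. Rbp4 (2.01 ± 0.37 SE, adjusted p = 0.0101) and Pyy (1.89 ± 0.33 SE, adjusted p = 0.00616) were higher in P3. The call for Rbp4 was lost without either P12 library (adjusted p = 0.16 and 0.0712) and with DESeq2 (0.178), and that for Pyy without the first P12 library (0.0942) and at like depth (0.217). Among maturity genes 4 of 26 were called lower in P3 than in P12, namely Cox6a2, Ucn3, Trpm5 and Prss53, with Ucn3 at a log2 fold change of -2.20 ± 0.32 SE (adjusted p = 0.00119). Prss53 lost the call without the first P12 library (adjusted p = 0.0712). Of 54 division genes edgeR and DESeq2 called 0 between these ages, with 7 higher at an unadjusted p under 0.05 and a median log2 fold change of 0.77.

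Of 30 tested acinar markers, edgeR called 7 higher and 0 lower in P3 than in P12 beta cells. That is 23.3%, against 0.655% of all genes in either direction, and the median log2 fold change was 1.76. At an unadjusted p under 0.05 in edgeR 22 were higher, and DESeq2 called 3 higher. The part of acinar RNA in these calls was not tested. Of the 5 highest genes against P12, 4 were acinar: Try4, Reg2, Reg3b and Gp2. Reg2 had 286 and Reg3b 218 UMIs in P3 beta cells and 0 in P12 beta cells, which for Reg2 is at least 69.6-fold higher against a floor of 3 counts over both P12 libraries. Ghrl was the fifth. The log2 fold change of Gp2 was 11.25 without the first P12 library and 5.50 without the second, where its call was lost (adjusted p = 0.0802), and that of Ghrl was 14.65 without the second. Rps3a3, a ribosomal protein pseudogene, had 3 UMIs in P3 and 1927 in P12 beta cells. It had 2 UMIs in the 3 control libraries together, and its reads could belong to near-identical copies. The number of genes called against P12 varied between 41 and 267 when single libraries of P12 or adult controls were left out.

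Within the P3 library, genes were compared between beta cells and the 39 other endocrine cells as ratios of summed levels, with no test, since both sides came from 1 library. Of 7272 genes with at least 200 UMIs over both sides together, 695 were over 2-fold higher in beta cells (9.56%) and 369 were over 2-fold lower (5.07%). Beta cells held most of the UMIs, so a gene high in beta cells passed this minimum more easily, and no counts of list members are given. The genes with the highest ratios included Trpm5, with 382 UMIs in beta cells and 2 in the other endocrine cells, and Mnx1, a homeobox factor that represses non-beta fates in mouse, with 238 UMIs in beta cells and 0 in the others. Mesothelin (Msln) was 53.3-fold higher (exact counting interval 20.7 to 196), with 937 UMIs in beta cells and 4 in the others, although most beta cells held none (a UMI in 45.0%).

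The phosphatidate enzyme Cds1 had 297 UMIs in P3 beta cells, beta-synuclein (Sncb) 270, the ciliary neurotrophic factor receptor Cntfr 209 and the potassium channel Kcnh1 206, each with 0 in the other endocrine cells. The low end held factors of the other lineages. Irx2, a homeobox gene of alpha cells, was at 1.02 normalized UMIs in P3 beta cells and 33.6 in P3 alpha cells. Hhex, which delta cells need, was at 1.84 in P3 beta cells and 108 in P3 delta cells. The imprinted gene Peg10 was at 0.246 in P3 beta cells and 17.4 in P3 alpha cells, but its median was 0 in both classes, 10 of 22 alpha cells held a UMI, and 1 cell held 51.4% of its UMIs in the other endocrine cells.

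The neonatal genes did not all belong to beta cells within the P3 library. Nrep had a median normalized level of 25.6 in P3 beta cells, 0.955 in P3 alpha cells and 4.00 in P3 delta cells. Dlk1 had 12.7 in P3 beta cells, 1.63 in P3 alpha cells and 2.32 in P3 delta cells, and Nnat had 15.9 in P3 beta cells, 0 in P3 alpha cells and 3.15 in P3 delta cells. For Dlk1 the upper quartile was 22.3 in P3 beta cells and 22.0 in the 12 P3 delta cells. The 5 P3 PP cells had a Dlk1 median of 2.29 but a maximum of 119, against a maximum of 95.9 in P3 beta cells. Of beta, alpha and delta cells, beta cells had the highest median of Nrep, Dlk1 and Nnat. Rbp4, by contrast, had a median of 99.1 in P3 beta cells, 233 in P3 alpha cells and 1075 in P3 delta cells. Pyy had 1193 in P3 beta cells, 1628 in P3 alpha cells, 6487 in P3 delta cells and 6492 in P3 PP cells. For Rbp4 and Pyy the P3 beta-cell median lay below that of P3 alpha cells and above those of all adult control libraries.

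**Figure D4:**
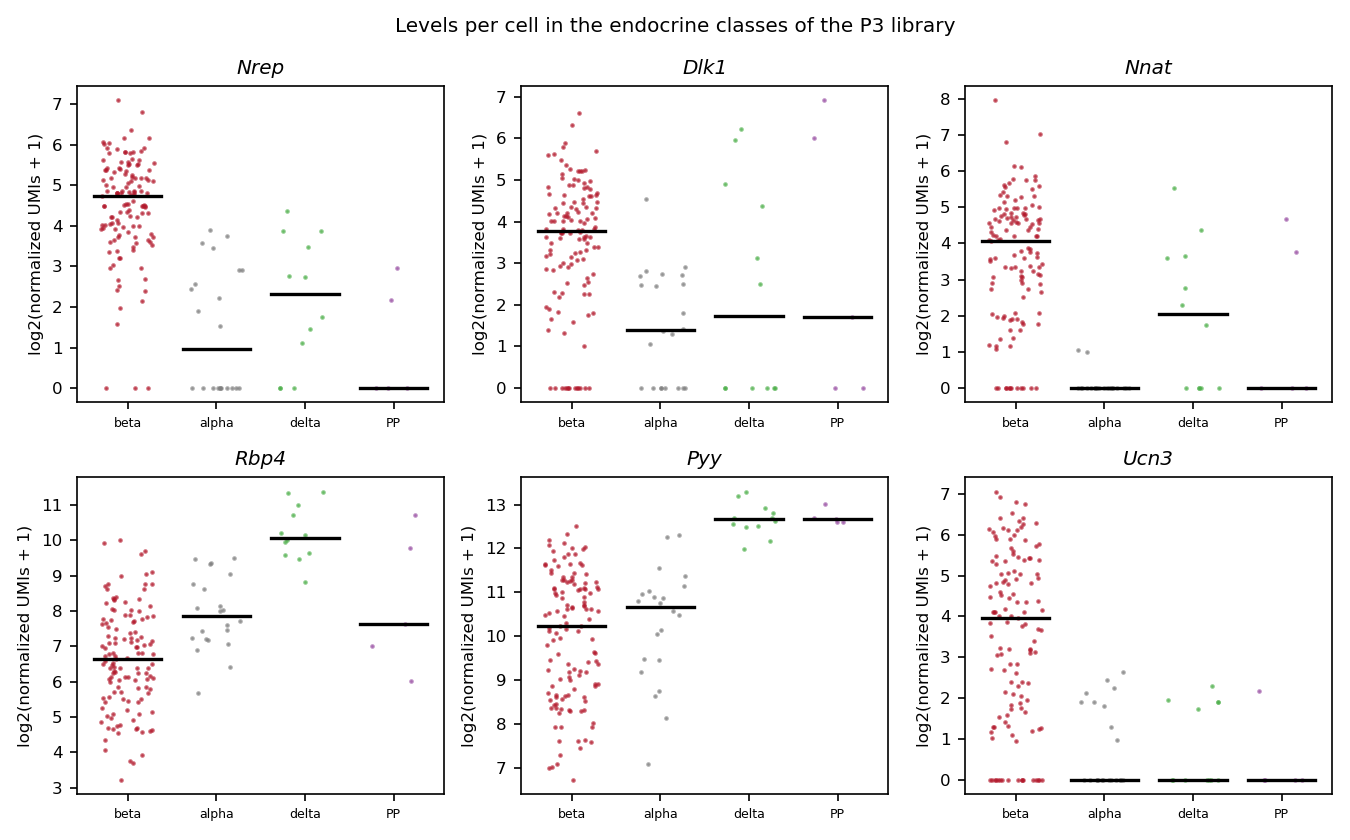
Level of 5 neonatal genes and of Ucn3 in each endocrine cell of the P3 library, as log2 of normalized UMIs plus 1 (y axis), by class (x axis: 129 beta, 22 alpha, 12 delta and 5 PP cells); points are cells and black lines medians. The median of Nrep, Dlk1, Nnat and Ucn3 is highest in beta cells, that of Rbp4 in delta cells, and that of Pyy is higher in delta and PP cells than in beta and alpha cells.

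Whether the P3 difference was the same in beta and alpha cells was tested in 6 libraries with at least 5 alpha cells, with library as a block. Of 14158 genes, 19 had a higher (0.134%) and 21 a lower (0.148%) P3 effect in beta than in alpha cells. Rbp4 in beta minus alpha cells was -0.73 log2 CPM at P3, and -3.96 and -2.86 in the 2 controls (difference 2.69 ± 0.38 SE, adjusted p = 5.54e-09). Pyy was at -0.04 at P3, and at -3.93 and -3.12 in the controls (difference 3.49 ± 0.32 SE, adjusted p = 1.20e-22). The P3 beta and alpha cells were thus closer for these genes than the adult ones. The call for Pyy held without either control library, and that for Rbp4 was lost without the first (2.13, adjusted p = 0.104). Oat, ornithine aminotransferase, had 6.55 log2 CPM in P3 beta and 6.01 in P3 alpha cells, against 2.97 and 0.90 in control beta and 6.22 and 5.86 in control alpha cells (difference 4.69 ± 0.82 SE, adjusted p = 1.54e-05).

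In the other direction, Prlr stood 3.40 log2 CPM higher in beta than in alpha cells at P3, and 5.88 and 7.27 higher in controls (difference -3.12 ± 0.54 SE, adjusted p = 1.54e-05), and Ucn3 was 4.21 higher at P3 and 6.35 and 7.38 higher in controls (-2.56 ± 0.60 SE, adjusted p = 0.012). The differences for Nrep (1.53 ± 0.87 SE), Dlk1 (2.35 ± 1.92 SE) and Nnat (-2.22 ± 3.12 SE) did not pass (adjusted p = 1 for each). Nnat in beta minus alpha cells was 6.37 log2 CPM at P3, and 5.35 and 4.62 in the 2 controls. It stood at -1.13 log2 CPM, the value of 0 UMIs in this fit, in the alpha cells of both controls, and at 0.78 in P3 alpha cells. The fitted difference for Nnat therefore has no firm size or sign. The number of calls was 6 without the first control library and 5 without the second. Without the second, Oat had an adjusted p of 0.776 (log2 difference 3.85) and Prlr of 0.66 (-2.51). Ucn3 lost the call without the first (0.104) or the second (1) and with DESeq2 (0.118). With no replicate block the differences were of like size, but Rbp4 (0.172), Pyy (0.0936), Oat (0.167), Prlr (0.145) and Ucn3 (0.423) did not pass. The signs for Nrep and Dlk1 turned without the second control library. Every P3 alpha cell also held Ins2 at 1000 or more, and 6 of the 22 held Ghrl at 500 or more. Without the cells rich in Ghrl the difference for Prlr was -1.28 and no longer passed (adjusted p = 0.523), while Rbp4, Pyy, Oat and Ucn3 still passed.

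Between the neonatal beta cells themselves, variation was measured after thinning to equal depth, in 122 cells and 3693 genes with a mean of at least 1 UMI. The squared coefficient of variation was set against the running median of genes of like mean. With predicted genes left out, of which 1 ranked seventh, the 10 genes farthest above it were Ghrl, Acta2, Spp1, Prss3, Ube2c, Top2a, Try5, Cpa1, Tmem80 and Clps. Without thinning Ghrl, Acta2 and Spp1 again ranked highest, while Cpa1, Try5 and Clps ranked 12, 14 and 15. Ghrl was 79.7-fold above the median, with 46.5% of its UMIs in 1 cell. Acta2 (71.5%), Prss3 (51.5%) and Top2a (48.0%) also owed much of their sum to 1 cell. Spp1, osteopontin, which ductal cells express, had 34.9% in 1 cell. Cpa1, Try5 and Clps are acinar genes found in all 122 cells, with 10.1% to 12.4% in the top cell. Ube2c and Top2a are genes of dividing cells. The 10 thus held genes whose sum came largely from 1 cell and acinar genes found in every cell.

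The neonatal markers varied less. Nrep lay 1.08-fold and Dlk1 1.37-fold above the running median for their level, close to other genes. Nnat was 3.24-fold, Ucn3 2.16-fold and Enpp2 2.17-fold above it. Rbp4 was 7.20-fold above it, with normalized levels between 8.40 and 1018. Of these genes Rbp4 differed most from cell to cell relative to its level, and Nrep least.

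**Figure D5:**
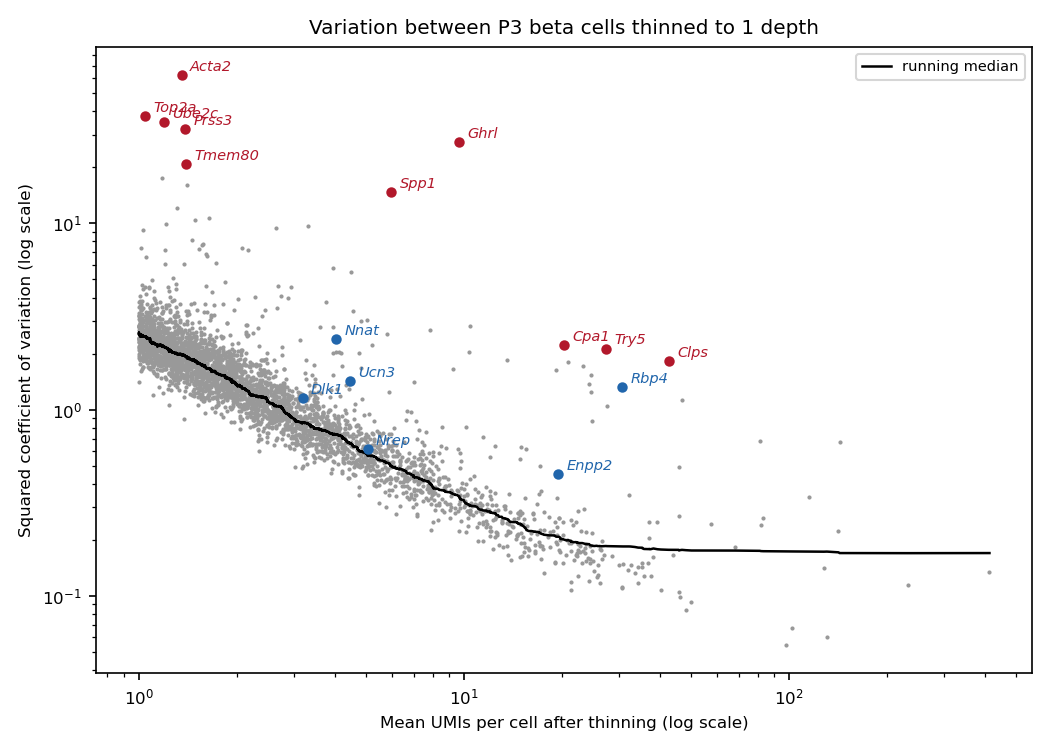
Squared coefficient of variation (y axis, log scale) against mean UMIs per cell after thinning (x axis, log scale) for 3693 genes in 122 P3 beta cells; the line is the running median, red points are the 10 genes farthest above it, predicted genes left out, and blue points neonatal or maturity genes. Nrep lies on the line, and Rbp4 and Nnat lie above it.

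Across the 122 thinned cells, which share a library, Nrep, Dlk1 and Nnat moved little with each other or with Ucn3. The Spearman correlation was 0.13 between Nrep and Dlk1, 0.15 between Nrep and Nnat, and 0.12 between Dlk1 and Nnat. Ucn3 correlated with Nrep at -0.11, with Dlk1 at 0.25 and with Nnat at 0.12. Rbp4 correlated with Prlr at -0.42 and with Ucn3 at -0.32, and with the maturity genes Slc2a2 at -0.14 and Ero1lb at 0.0052. Pyy and Ppy correlated at 0.42. Of the 103 P3 beta cells with Nrep, Dlk1 and Nnat, 95 also held a Ucn3 UMI. Most of these genes had few UMIs per cell, so weak correlations are no finding.

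Division was also looked for cell by cell. A share based on at least 5 UMIs of the 54 division genes took in all 122 thinned P3 beta cells and did not separate any. With 12 core genes of mitosis, a list chosen after seeing the data, 7 of 122 P3 beta cells passed 5 UMIs, which is 5.74% (exact interval 2.34 to 11.5). The share was 0% and 3.39% at P12, 4.35% at P21, and 1.62%, 2.36% and 0% in adult controls, and these intervals overlapped. In P3 alpha cells 3 of 19 passed. At 2 core UMIs the share was 51.6% of P3 beta cells and 42.1% of P3 alpha cells, against 5.95%, 5.51% and 0% of control beta cells. The intervals of both P3 classes overlapped. The 7 cells past 5 core UMIs had Nrep between 2.94 and 41.7 (median 19.4), and 59 P3 beta cells under 2 core UMIs had Nrep between 0 and 136 (median 19.1). Ucn3 had a median of 4.22 in the 7 cells and 11.9 in the 59, and Slc2a2 8.33 in the 7 and 30.4 in the 59, whereas Prlr had 29.96 in the 7 and 14.2 in the 59. The ranges overlapped for each gene.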

How the data were processed

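The authors deposited UMI counts of 40824 genes in 2999 cells of 17 libraries and, for the same cells, a signal table. Each value was the UMIs of a gene scaled to 100000 UMIs of its cell, with 8 genes left out of the total (Gcg, Iapp, Ins1, Ins2, Ppy, Pyy, Sst and Yam1; tolerance 0.01). The submitters' processing notes name mm10, UMI-tools 0.5.0, TopHat2 2.1.0, featureCounts 1.5.3 and SAMtools 1.3.1. Their settings, strand and doublet removal are not given in the sources used here, and no doublet caller was run.

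The beta-cell rule, the gene lists and the tests were chosen with earlier results of these data known. The P3 library held 19275407 UMIs, 10137552 of them in beta cells. UMIs were summed over the beta cells of 7 libraries (P3 1, P12 2, P21 1, control 3) and tested with edgeR 4.0.16 (R 4.3.3; TMM, filterByExpr, quasi-likelihood F test, 1 mean per group, 3 residual degrees of freedom), with Benjamini-Hochberg adjustment and a threshold of 0.05. The SE is the log2 fold change over the root of F. The difference between beta and alpha cells used 6 libraries with library as a block and had 2 residual degrees of freedom. log2 CPM used a prior count of 2, so -1.80 stands for 0 UMIs in the beta-cell fit and -1.13 in the fit with alpha cells. Genes were named as the 12 highest and 12 lowest fold changes past the threshold with P3 outside the control range and a mean log2 CPM of at least 5 (5 each for the other tests), up to 4 called members per list, and the 10 leading genes within P3; other list members were named after their values were seen, and some genes that the rule names are not reported here. Intervals are exact (Clopper-Pearson) and cover counting error only. DESeq2 1.42.0, limma 3.58.1 and other scalings, filters and cell rules were alternatives, and the tests were tried on simulated data. Python 3.11.15, NumPy 2.4.6 and SciPy 1.17.1 were used.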

Additional observations from a re-analysis of the deposited data

Results flagged for a closer look

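The P3 effect differed between beta and alpha cells for 40 genes by the interaction test (edgeR, Benjamini-Hochberg adjusted p under 0.05), of which 9 with high or low differences are given here. The log2 difference, beta minus alpha, was 4.69 for Oat, 4.12 for Pde10a, 3.87 for Hist3h2ba and 3.56 for Rcn3. It was -10.82 for Ghrl, -4.14 for Dio1, -3.95 for Siglec1, -3.78 for Mthfd2 and -3.12 for Prlr. Each of the 9 lost the call without 1 or the other control library and with no replicate block. Pde10a, Hist3h2ba, Rcn3, Dio1 and Mthfd2 lost it without either. Ghrl had a difference of -8.35 without the first (adjusted p = 0.104), and Siglec1 had -3.09 without the second (0.124). DESeq2 did not call Pde10a, Rcn3, Ghrl or Mthfd2 (adjusted p = 0.101 to 0.385). Without cells rich in Ghrl, Prlr had -1.28 (0.523). Ghrl was at 8.88 log2 CPM in the P3 beta cells and 11.8 in the P3 alpha cells. Siglec1 had 26.5% of its P3 beta-cell UMIs in 1 cell.

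Outside the endocrine classes, 5 of the 36 P3 cells that the rule put in no class had Ghrl at 500 or more, against 0 of all cells in the adult control libraries.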

How the results depend on the processing

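Against controls, 410 genes were called. Other settings gave 731 without a filter on low counts, 1222 with limma-voom, 56 with all 17 libraries in the fit, 267 in beta cells with other hormones under 1000 and Prss2 under 500, 60 with limma-trend on mean normalized values and 241 in cells of like depth. Leaving out single libraries gave 274 to 589. The split of higher to lower calls was 169 to 405 with DESeq2, 726 to 496 with limma-voom and 46 to 14 with limma-trend. Against P12, 94 genes were called. DESeq2 gave 163, no filter 265, all 17 libraries 11, the 2 groups alone 182, Ins2 of at least 1000 263 and limma-trend 17, and leaving out single libraries gave 41 to 267. The split was 56 to 107 with DESeq2, 188 to 75 with Ins2 of at least 1000, 16 to 1 with limma-trend and 45 to 19 at like depth. For the difference between beta and alpha cells, 40 genes were called, against 1 with no replicate block, 16 with DESeq2, 170 in libraries with at least 20 alpha cells, 187 without cells rich in Ghrl and 5 to 6 without single control libraries. Its value for Nnat was 0.11 with DESeq2; it ranged from -0.20 to 2.53 for Nrep and from -3.32 to 4.74 for Dlk1 without single controls. The causes were not tested.

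A replicate block raised the calls to 1031 against controls and 598 against P12, but P3 shares only number 1 with the other libraries. Among the first 2 control and the 2 P12 libraries, the deviations of same-numbered libraries correlated at -0.04. That value did not include P3, P21 or the third control library. Whether libraries of the same number share a batch was not tested. The share of P3 beta cells with division UMIs was 96.7% at a minimum of 10 UMIs and 5.74% with the core list. With Ins2 of at least 10000 the rule kept 59 cells, 90.8% of the P3 endocrine cells. With limma-trend the calls against controls for Nnat, Rbp4, Pyy and Ucn3 were lost (adjusted p = 0.0522 to 0.113). At like depth the log2 fold change was 4.15 for Nrep and -1.68 for Ucn3. Of 69 genes named against controls, 13 kept their direction and side of the threshold under every setting tried. Like depth, the core list and the exclusion of Ghrl-rich cells were chosen after seeing the data. The stricter cell rule left 0 other endocrine cells in P3, so it was not run there. Like depth left 33 P3 beta cells, so low transcripts such as Igf2bp1 were measured on few UMIs there.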

Other observations

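The rule left 36 P3 cells in no class. In 30 of them no hormone reached 3000 with Prss2 under its limit, and 6 had Prss2 at 1500 or more. The median depth was 77155 UMIs per cell in P3 beta cells and 164412 in these cells. Nnat had a median normalized level of 15.9 in P3 beta cells and 1.68 in the cells of no class, and Rbp4 had 99.1 in P3 beta cells and 81.5 in the cells of no class. The 26 cells among them with Ins2 as the largest hormone had a median of 116340 UMIs.

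Genes that beta cells normally keep silent had 1 of 21 tested members called higher in P3 than in control beta cells, with a median log2 fold change of 1.29. It was Oat, at 6.42 log2 CPM in P3, 4.97 and 4.60 at P12, 3.24 at P21, and 2.82, 0.64 and 2.12 in control beta cells (log2 fold change 4.35 ± 0.52 SE, adjusted p = 5.47e-05). The log2 fold change of Oat was 5.48 without the first control library and 3.84 without the second. The amino acid transporter Slc38a5 also rose (log2 fold change 3.81 ± 0.47 SE, adjusted p = 7.03e-05). Fatty acid genes had 1 of 17 called higher, the fatty acid carrier Fabp5 (log2 fold change 3.06 ± 0.67 SE, adjusted p = 0.0154), a call lost without the second control library (adjusted p = 0.0525).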
